A study of Oryza sativa with 6 samples.

Results

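Protein kinases and other phosphorylation genes were examined in leaves of the rice mutant *Dap1* and of its wild type ZH11. The deposited table lists 925 genes, and 46 of them carry the GO process term protein phosphorylation or phosphorylation. Of these, 6 were left out because they belong to the KEGG classes signal transduction or carbohydrate metabolism, 0 because of a hormone name in a GO process term, and 2 because every library of one group had 3 counts or fewer. The remaining 38 genes are described here. They were selected on counts of these same libraries, by the authors' thresholds for the difference between *Dap1* and ZH11, which all 925 genes had passed, and by the low count step. Their differences are therefore a description of chosen genes and not a test.

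The *Dap1* group comprised 3 leaf samples of a mutant with a T-DNA inserted upstream of the homeobox gene *OsWUS*, and the WT group comprised 3 leaf samples of the *japonica* variety ZH11 that carries no insertion. The mutant is a single insertion line in which the insertion was found only in the hemizygous state. As a check of the labels, the counts on *OsWUS* (*Os04g0663600*) were 77, 100 and 105 in *Dap1* leaves and 0 in every WT library. Both groups were grown in the field and sampled at the booting stage, 1 RNA library per biological replicate, and ages in days were not given. Because *Dap1* headed later, the day of sampling and the genotype cannot be told apart. The libraries differed little in relative size, from 0.952 to 1.06 in *Dap1* and from 0.862 to 1.11 in WT. The 38 genes held 18340 to 20518 counts in *Dap1* and 8108 to 10671 in WT. Counts on all listed genes were also higher, at 601642 to 666483 in *Dap1* and 244181 to 314019 in WT. The share of the 38 genes in these counts was therefore 2.99% to 3.08% in *Dap1* and 3.32% to 3.40% in WT. Leaf markers could be checked only where they were listed. Of 4 genes that matched the photosynthesis words, 3 were photosystem II genes, all higher in *Dap1*, and the other was the heading date gene *GHD7*, matched only by the wording of its domain name. In whole leaves, fewer cells of a type and less RNA per cell cannot be told apart. Heat-response genes moved with the genotype: 26 of the 27 listed were higher in *Dap1* and 1 was lower, and their summed FPKM was 2652 to 2667 in *Dap1* and 485 to 495 in WT. None of the 38 genes is among these 27, and the part of the heat-response change in the values below was not tested.

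Protein kinases transfer phosphate from ATP to serine, threonine or tyrosine of other proteins and so switch their activity. In plants the largest group are receptor-like kinases, which span the plasma membrane and read signals with an outer domain built of leucine-rich repeats, lectin-like folds or cell-wall-binding repeats. Receptor-like cytoplasmic kinases lack the outer domain and pass signals on inside the cell, and CBL-interacting protein kinases are switched on by calcium sensors of the calcineurin B-like family. The term phosphorylation also takes in kinases of small molecules, such as those of amino acid, nucleotide and vitamin metabolism. By description and symbol the 38 genes fell into 6 small-molecule kinases, 2 CBL-interacting protein kinases, 8 receptor-like cytoplasmic kinases, 2 lectin receptor kinases, 2 wall-associated kinases, 1 CrRLK1-like kinase, 2 leucine-rich repeat genes, 2 other receptor kinases, 2 other kinases with a symbol, 6 genes described by a kinase domain alone and 5 genes whose description names no kinase. A GO term of protein kinase activity was given for 32 of them, all except the small-molecule kinases.

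Levels are given as FPKM, the fragment count corrected for transcript length and for the number of mapped fragments in the library, and differences as the log2 fold change of *Dap1* over ZH11 from an edgeR fit to the counts of all 925 genes, with its standard error. A gene passed when edgeR's quasi-likelihood p-value, adjusted by Benjamini-Hochberg over the 925 genes, was under 0.05 and its log2 fold change exceeded 1 in size. Of the 38 genes, 36 passed, 20 of them higher and 16 lower in *Dap1*. Among all listed genes 98.6% passed, 56.9% higher and 41.7% lower. The rule used this contrast, so nothing is read from these counts or from those by kinase type below. They depend on the scaling of the libraries: 10 genes passed as higher and 17 as lower with TMM factors taken from the listed genes, and 6 as higher and 17 as lower with DESeq2's size factors. The median log2 fold change was 1.07 over the 38 genes and 1.15 over all listed genes. With 21 genes above 0 and 17 below, this median says little. The median size of the change was 1.37 over the 38 genes, 1.46 over the 774 other listed genes that also passed the low count step and 1.54 over all listed genes. Only 3 of the 38 genes changed by more than 2 on the log2 scale, or 7.89%, against 26.1% of those 774 genes and 34.4% of all listed genes. The rule bears on this share, since 4 of the 8 phosphorylation genes that it left out changed by more than 2. FPKM did not overlap between the groups for 37 of the 38 genes, where the share among all listed genes was 99.0%.

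**Figure D1:**
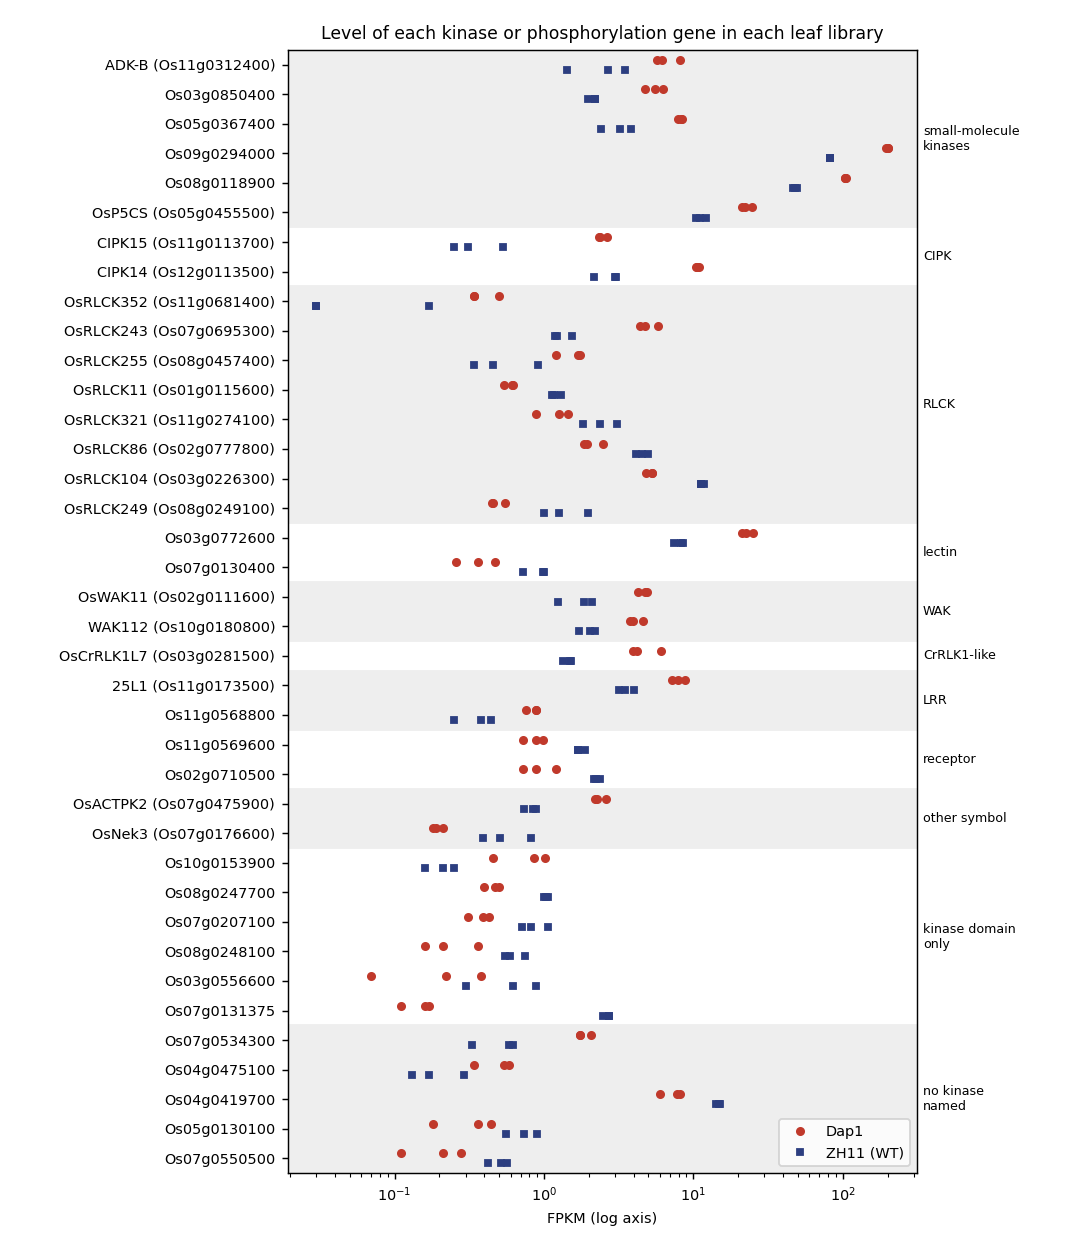
FPKM (log axis) of the 38 genes in each library, with *Dap1* as red circles above ZH11 as blue squares and the kinase types named at the right. The groups overlap in *Os03g0556600* alone, and the small-molecule kinases *Os09g0294000* and *Os08g0118900* lie above the other genes in both groups.

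All 6 small-molecule kinases passed as higher in *Dap1*, where 98.6% of all listed genes passed and 56.9% passed as higher. The log2 fold changes of the 6 lay between 1.00 and 1.43, with a median of 1.32. Their summed FPKM was 348 ± 1.29 (SD, n = 3) in *Dap1* and 149 ± 2.41 (SD, n = 3) in WT. They included the most abundant of the 38 genes, *Os09g0294000*, described as a bifunctional aspartokinase and homoserine dehydrogenase of the chloroplast. This enzyme phosphorylates aspartate at the entry to lysine, threonine and methionine synthesis and also acts on a later step toward threonine and methionine. *Os09g0294000* had an FPKM of 201, 196 and 202 in the *Dap1* libraries, against 82.7, 81.9 and 82.7 in the WT libraries. Every *Dap1* library was thus more than 100 FPKM above every WT library, and the log2 fold change was 1.29 (standard error 0.025). The other aspartokinase, *Os03g0850400*, was far less abundant, at 4.74, 6.26 and 5.52 FPKM in *Dap1* and 2.20, 2.21 and 1.97 FPKM in WT. Its log2 fold change of 1.37 (standard error 0.15) was close to that of *Os09g0294000*.

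Adenylate kinases interconvert ATP, ADP and AMP and were represented by *Os08g0118900*, whose GO component is the mitochondrion, and by *ADK-B* (*Os11g0312400*). The FPKM of *Os08g0118900* was 104, 106 and 105 in *Dap1*, against 49.3, 46.7 and 47.9 in WT, a log2 fold change of 1.13 (standard error 0.038). Its replicates were the closest of all 38 genes in *Dap1*, with a coefficient of variation of 0.57% after scaling to library size. *ADK-B* was 6.14, 5.75 and 8.22 FPKM in *Dap1* and 2.67, 3.47 and 1.43 FPKM in WT. The WT libraries of *ADK-B* were widely spread, and its log2 fold change of 1.43 (standard error 0.22) was 1.14 at the lowest and 1.71 at the highest when single libraries were omitted. *OsP5CS* (*Os05g0455500*), delta-1-pyrroline-5-carboxylate synthetase, phosphorylates glutamate in the rate-limiting step of proline synthesis. Its FPKM was 22.4, 24.6 and 21.1 in *Dap1* and 12.2, 11.2 and 10.5 in WT. At 1.00 (standard error 0.064) its log2 fold change lay on the threshold, and it was below it without *Dap1* replicate 2 (0.94), without ZH11 replicate 2 (0.997) and without ZH11 replicate 3 (0.97). It also missed the threshold with limma, at 0.94 on log2(FPKM + 1) and 0.998 on log2(FPKM + 0.1). *Os05g0367400*, a thiamin pyrophosphokinase, makes the cofactor thiamin diphosphate from thiamin. It had 8.29, 8.42 and 7.85 FPKM in *Dap1* against 3.22, 2.43 and 3.85 FPKM in WT. Its log2 fold change was 1.36 (standard error 0.16). None of the 6 genes passed with library scalings computed over the listed genes, which shift all genes downwards. With TMM factors their median log2 fold change was 0.87 and with DESeq2's size factors it was 0.47, while the medians of all listed genes moved by -0.45 and -0.85.

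Both CBL-interacting protein kinases passed as higher in *Dap1*, as did 56.9% of all listed genes. *CIPK15* showed the largest rise of the 38 genes. In rice *CIPK15* is known for linking oxygen shortage to the sugar-sensing kinase SnRK1A in submerged seedlings. The *CIPK15* (*Os11g0113700*) counts were 84, 94 and 107 in the *Dap1* libraries, against 13, 8 and 19 in the WT libraries. Its mean level was 2.45 ± 0.172 FPKM (SD, n = 3) in *Dap1* leaves and 0.363 ± 0.147 FPKM (SD, n = 3) in WT leaves, so the gene was 6.93-fold higher, a log2 fold change of 2.79 (standard error 0.26). *CIPK14* (*Os12g0113500*) was more abundant, with an FPKM of 11.0, 10.6 and 10.4 in *Dap1* and of 3.0, 2.17 and 3.06 in WT. It was 3.83-fold higher, a log2 fold change of 1.94 (standard error 0.11). The identifiers place *CIPK15* on chromosome 11 and *CIPK14* on chromosome 12, and these genes are close copies of each other. RSEM, named in the methods for expression, divides reads that match several copies by a statistical estimate, so the separate values of the pair are uncertain. Their summed FPKM, which depends less on the division, was 13.3, 13.0 and 13.0 in *Dap1* and 3.31, 2.42 and 3.59 in WT. Both genes passed under every alternative scaling, tool and left-out library that was tried.

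**Figure D2:**
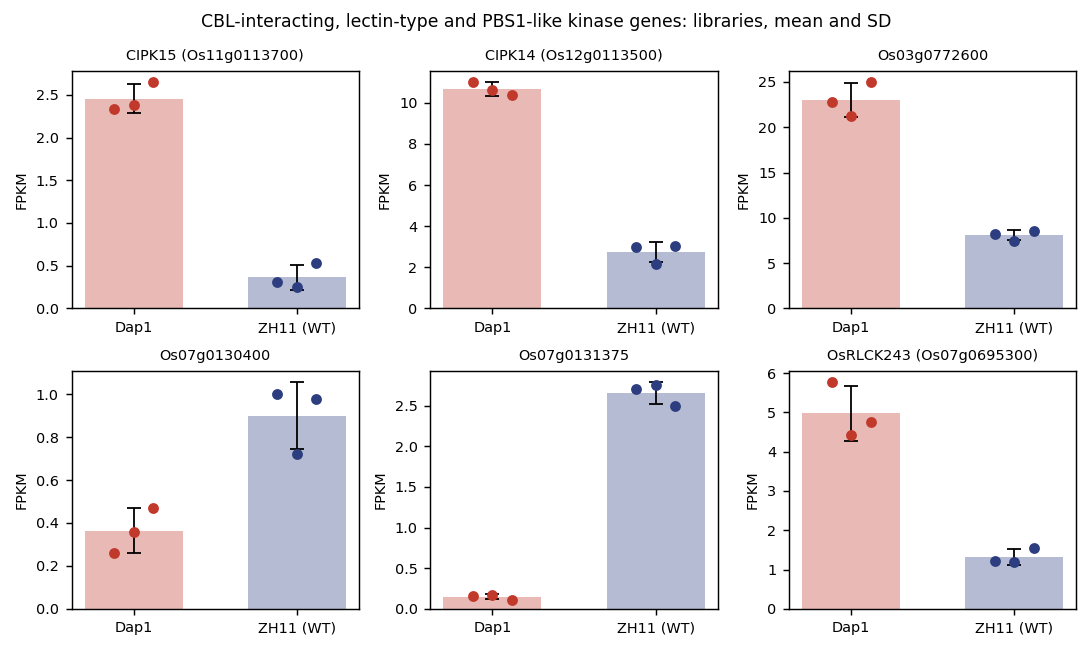
FPKM per library (points), mean (bars) and SD (error bars, n = 3), with *Dap1* at the left and ZH11 at the right of each panel. Shown are both CBL-interacting protein kinases, both lectin receptor kinases, *Os07g0131375*, which shares GO terms with them, and *OsRLCK243*. *CIPK15*, *CIPK14*, *Os03g0772600* and *OsRLCK243* are higher in each *Dap1* library, and *Os07g0130400* and *Os07g0131375* are lower.

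The receptor-like cytoplasmic kinases were divided, with 3 higher and 5 lower in *Dap1*, all 8 past the thresholds, and a median log2 fold change of -1.02. Of all listed genes 98.6% passed, 56.9% as higher and 41.7% as lower. The class of receptor-like cytoplasmic kinases was set by the symbol alone. A GO function of a transmembrane receptor kinase was given for *OsRLCK243*, *OsRLCK104* and *OsRLCK249*, and polysaccharide binding for *OsRLCK11*. The higher genes were *OsRLCK352*, *OsRLCK243* and *OsRLCK255*. *OsRLCK243* (*Os07g0695300*) is described as similar to PBS1, an *Arabidopsis* kinase that is cut by the bacterial protease AvrPphB and guarded by a resistance protein. Its level was 5.77, 4.42 and 4.76 FPKM in *Dap1* against 1.22, 1.18 and 1.55 FPKM in WT, and its log2 fold change was 1.91 (standard error 0.18). *OsRLCK255* (*Os08g0457400*) is described as similar to Avr9/Cf-9 induced kinase 1, which takes part in resistance to leaf mould in tomato. Its FPKM was 1.74, 1.21 and 1.68 in *Dap1* and 0.34, 0.91 and 0.46 in WT. The highest WT library lay near the lowest *Dap1* library. A log2 fold change of 1.47 (standard error 0.30) was fitted, and omitting single libraries moved it to between 1.19 and 1.94. *OsRLCK352* (*Os11g0681400*) was barely detected, with 11, 12 and 18 counts in *Dap1* and 1, 1 and 6 in WT. Only ZH11 replicate 3, with 6 counts, kept it past the low count step of the rule. Its log2 fold change of 2.27 (standard error 0.61) was 1.82 without ZH11 replicate 1 and 1.98 without ZH11 replicate 2. It was 3.57 without ZH11 replicate 3, where the rule would have left the gene out.

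The lower genes of this family were led in abundance by *OsRLCK104* (*Os03g0226300*), described as similar to Pto kinase interactor 1, a tomato kinase that is phosphorylated by the resistance kinase Pto. It had 5.33, 5.32 and 4.83 FPKM in *Dap1* against 11.3, 11.7 and 11.3 FPKM in WT, a log2 fold change of -1.15 (standard error 0.092). *OsRLCK86* (*Os02g0777800*) had 2.50, 1.93 and 1.85 FPKM in *Dap1* and 4.14, 4.98 and 4.57 FPKM in WT, a log2 fold change of -1.12 (standard error 0.13). Both genes were lower in every *Dap1* library than in any WT library, and 99.0% of all listed genes likewise had groups without overlap. *OsRLCK249* (*Os08g0249100*) fell furthest of the family, by 1.54 on the log2 scale (standard error 0.27), with 25, 22 and 23 counts in *Dap1* and 103, 41 and 60 in WT. Its WT libraries were far more spread than its *Dap1* libraries, which lay at 0.45 to 0.55 FPKM against 1.0 to 1.96 FPKM in WT. *OsRLCK321* (*Os11g0274100*) had 20, 36 and 32 counts in *Dap1* and 63, 38 and 75 in WT, so the lowest WT count was only just above the highest *Dap1* count. In FPKM, which corrects for library size, the same libraries were further apart, at 1.84 in WT and 1.45 in *Dap1*. *OsRLCK11* (*Os01g0115600*), described as similar to LRK14, had 22, 21 and 24 counts in *Dap1* and 47, 42 and 44 in WT, a tight pair of groups. The log2 fold changes of *OsRLCK321* and *OsRLCK11* were both -1.02 (standard errors 0.26 and 0.25), at the threshold. *OsRLCK321* was at -0.85 without *Dap1* replicate 1 and at -0.81 without ZH11 replicate 3, and *OsRLCK11* was at -0.96 without replicate 2 of either group.

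**Figure D3:**
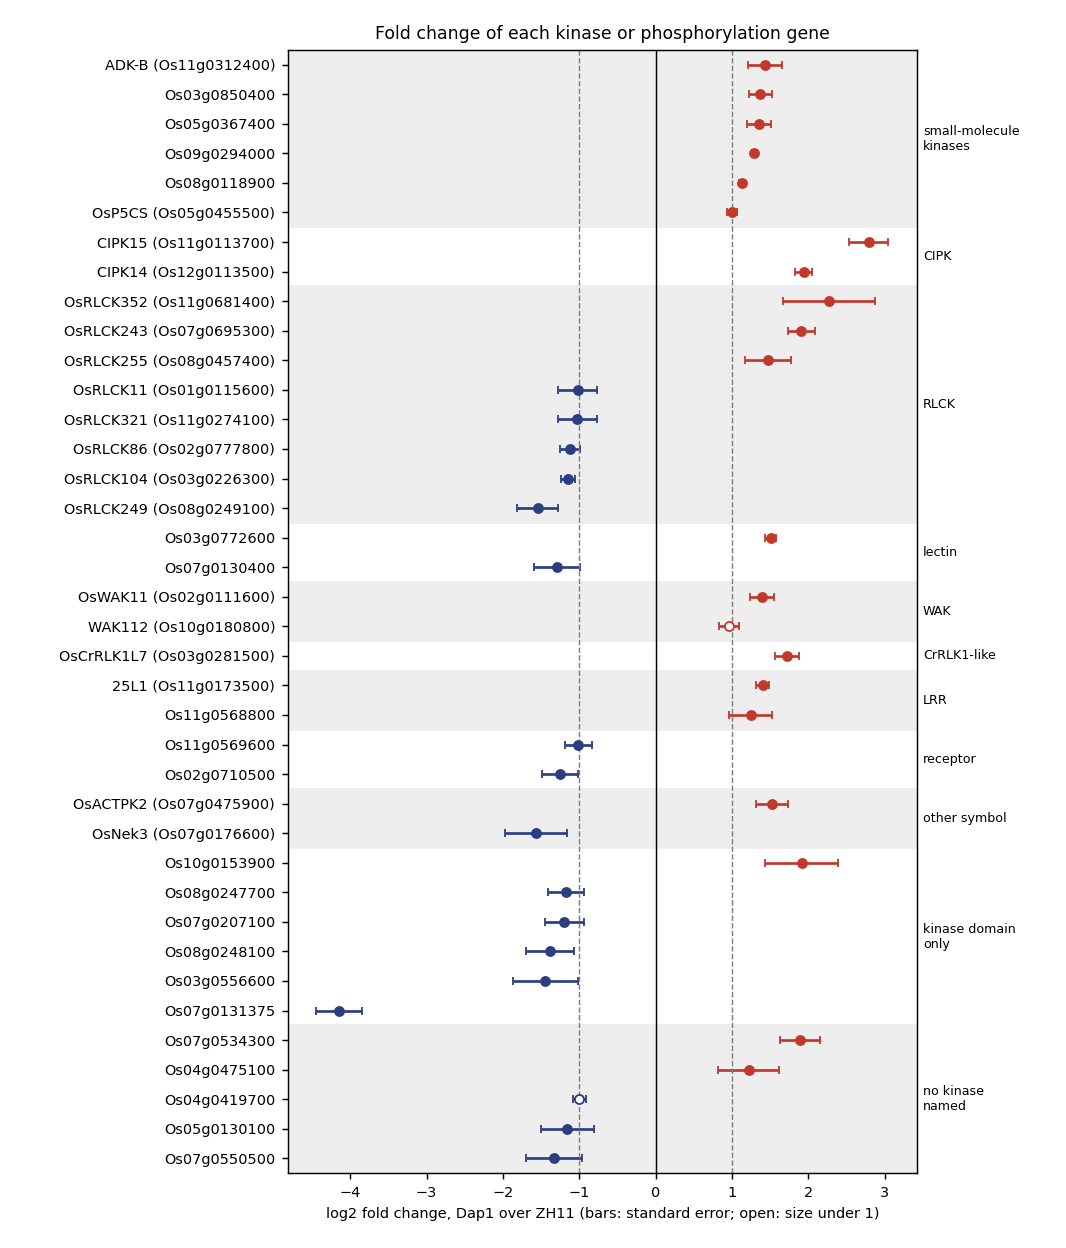
Log2 fold change of *Dap1* over ZH11 (points) with its standard error (bars) for the 38 genes, red above 0 and blue below 0, with open points for *WAK112* and *Os04g0419700*, which lay within 1 of 0. Dashed lines mark the threshold of 1. All small-molecule kinases and CBL-interacting kinases lie to the right, the receptor-like cytoplasmic kinases lie on both sides, and *Os07g0131375* lies at -4.15.

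Genes with lectin-type annotation moved in opposite directions. Lectin receptor kinases carry a legume-lectin-like domain outside the cell, and several act in plant defence. *Os03g0772600* and *Os07g0130400* share the description of lectin-like receptor kinase 7;2. *Os03g0772600* had 22.7, 21.3 and 25.0 FPKM in *Dap1* against 8.26, 7.46 and 8.51 FPKM in WT, a log2 fold change of 1.51 (standard error 0.073). It was the most abundant gene among the 32 protein kinases in *Dap1*. *Os07g0130400* was expressed at 0.26, 0.36 and 0.47 FPKM in *Dap1* and at 1.00, 0.72 and 0.98 FPKM in WT, and fell by 1.29 on the log2 scale (standard error 0.30). *Os07g0131375* is described by a kinase domain alone, but its GO terms, carbohydrate binding and defense response to oomycetes, are those of the lectin receptor kinases. Carbohydrate binding without a defense term was also given for *Os03g0556600*, which was lower and is described below. *Os07g0131375* showed the largest fall of the 38 genes, with 5, 6 and 4 counts in *Dap1* against 101, 80 and 85 in WT. The mean level was 0.147 ± 0.032 FPKM (SD, n = 3) in *Dap1* leaves and 2.65 ± 0.134 FPKM (SD, n = 3) in WT leaves, 17.7-fold lower in *Dap1*, and the log2 fold change of -4.15 (standard error 0.30) kept within -4.28 to -3.98 when single libraries were omitted. The counts in *Dap1* lay just above the limit of 3 used in the rule, so this fold change rests on few fragments. By identifier *Os07g0130400* and *Os07g0131375* are near neighbours on chromosome 7. These neighbours and *Os03g0772600* are also the only ones of the 38 with a defense term.

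Wall-associated kinases bind pectin in the cell wall with their outer part. *OsWAK11* (*Os02g0111600*) had 4.75, 4.25 and 4.92 FPKM in *Dap1* and 2.10, 1.25 and 1.86 FPKM in WT, and its log2 fold change was 1.40 (standard error 0.16). *WAK112* (*Os10g0180800*), described in the table as a negative regulator of blast resistance, had 3.79, 3.96 and 4.58 FPKM in *Dap1* and 2.03, 1.73 and 2.21 FPKM in WT. Its groups did not overlap, as in 99.0% of all listed genes, but at 0.96 (standard error 0.13) its log2 fold change did not pass. It was over 1 without *Dap1* replicate 1 (1.03) and without ZH11 replicate 3 (1.08). *OsCrRLK1L7* (*Os03g0281500*) belongs to the family of the *Arabidopsis* receptor kinase FERONIA, which senses the state of the cell wall during growth. It had 4.19, 3.98 and 6.11 FPKM in *Dap1* against 1.35, 1.51 and 1.5 FPKM in WT. The third *Dap1* library stood above the others, and the log2 fold change was 1.72 (standard error 0.16), or 1.5 without this library.

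Both genes described by leucine-rich repeats passed as higher in *Dap1*, as did 56.9% of all listed genes. *25L1* (*Os11g0173500*) had 8.77, 7.18 and 7.95 FPKM in *Dap1* and 3.19, 3.99 and 3.50 FPKM in WT. In counts its log2 fold change was 1.40 (standard error 0.090). *Os11g0568800* had 37, 47 and 48 counts in *Dap1* and 14, 17 and 23 in WT, a log2 fold change of 1.25 (standard error 0.28). Both genes described only as receptor kinases passed as lower, as did 41.7% of all listed genes. The log2 fold change was -1.01 (standard error 0.17) for *Os11g0569600*, which lies close to *Os11g0568800* on chromosome 11 by its identifier, and -1.25 (standard error 0.23) for *Os02g0710500*. *Os11g0569600* had 62, 50 and 63 counts in *Dap1* and 124, 108 and 113 in WT. These neighbours on chromosome 11 thus lay on opposite sides of 0. *Os11g0569600* was within the threshold at -0.90 without *Dap1* replicate 2 and at -0.96 without ZH11 replicate 2.

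Of the other kinases with a symbol, 1 was higher and 1 was lower. *OsACTPK2* (*Os07g0475900*), described as a kinase family protein, had 2.60, 2.21 and 2.26 FPKM in *Dap1* and 0.74, 0.88 and 0.84 FPKM in WT, and its log2 fold change was 1.53 (standard error 0.21). Its replicates were tight, and omitting single libraries gave values from 1.45 to 1.58. *OsNek3* (*Os07g0176600*) is a relative of the mitotic kinase NIMA of *Aspergillus* and is annotated with pollen germination. It had 7, 8 and 9 counts in *Dap1* and 18, 18 and 34 in WT, a log2 fold change of -1.56 (standard error 0.40). Its level was under 1 FPKM in all libraries.

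Of 6 genes described by a kinase domain alone, 5 passed as lower and 1 as higher, against 41.7% and 56.9% of all listed genes. The higher gene was *Os10g0153900*, whose GO terms are cyclin-dependent protein kinase activity and the nucleus. It had 19, 11 and 25 counts in *Dap1* against 4, 5 and 5 in WT, which gave a log2 fold change of 1.91 (standard error 0.48). Besides *Os07g0131375*, the lower genes were *Os08g0247700*, *Os08g0248100*, *Os07g0207100* and *Os03g0556600*, with log2 fold changes between -1.44 and -1.17 and mean FPKM of 0.223 to 0.457 in *Dap1* and 0.60 to 1.03 in WT. *Os08g0248100* had 12, 23 and 10 counts in *Dap1* and 51, 31 and 34 in WT, and *Os08g0247700* had 0.40, 0.47 and 0.50 FPKM in *Dap1* and 1.03, 1.00 and 1.06 FPKM in WT. By their identifiers *Os08g0247700*, *Os08g0248100* and *OsRLCK249* (*Os08g0249100*) lie close together on chromosome 8, and all 3 were lower. Reads may be shared within such clusters of similar genes, so single values there are uncertain. *Os03g0556600*, with GO terms of carbohydrate binding and recognition of pollen, was the gene whose groups overlapped. It had 19, 12 and 4 counts in *Dap1* and 51, 28 and 16 in WT, so the highest *Dap1* library exceeded the lowest WT library. A log2 fold change of -1.44 (standard error 0.43) was fitted, and it was -1.01 without *Dap1* replicate 3 and -2.03 without *Dap1* replicate 1.

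Descriptions of 5 genes named no kinase, although their GO terms give protein kinase activity and the plasma membrane. *Os07g0534300* was higher, with 60, 77 and 66 counts in *Dap1* and 13, 19 and 21 in WT, a log2 fold change of 1.89 (standard error 0.26). *Os04g0475100* was also higher, at 24, 15 and 25 counts in *Dap1* and 14, 5 and 8 in WT, a log2 fold change of 1.22 (standard error 0.41). It missed the threshold with TMM factors (0.76) and DESeq2's size factors (0.37). With limma it was at 0.31 on log2(FPKM + 1) and 0.99 on log2(FPKM + 0.1). *Os04g0419700* had 6.03, 7.82 and 8.13 FPKM in *Dap1*, against 15.1, 14.8 and 14.2 FPKM in WT, where it was the most abundant of the 32 protein kinase genes. Its fitted log2 difference of -0.997 (standard error 0.084) did not pass. It was past the threshold with the replicate number as a block (-1.01), without *Dap1* replicate 2 (-1.04) or 3 (-1.08) and without ZH11 replicate 3 (-1.02). *Os05g0130100* and *Os07g0550500* passed as lower, at log2 fold changes of -1.16 (standard error 0.34) and -1.33 (standard error 0.37). The first of these was within the threshold without *Dap1* replicate 3 (-0.85) and without ZH11 replicate 2 (-0.997).

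The genes were also counted by level and by annotation. Of the 5 genes with a mean FPKM of at least 10 over all libraries 4 were higher in *Dap1*, and of the 14 genes with a mean under 1 only 4 were higher and 10 were lower. Among all listed genes 130 of 185 with a mean of at least 10, and 161 of 306 with a mean under 1, were higher. A GO component with membrane was given for 24 of the 38 genes, of which 9 passed as higher and 13 as lower. Of the 239 listed genes with such a component, 129 passed as higher and 106 as lower. Of the 8 protein kinases without it, 5 passed as higher and 3 as lower, where all listed genes gave 56.9% and 41.7%. All of these 8 except *Os10g0153900* had no GO component at all, so they are not a class of another location. These counts are descriptions of a chosen list, and no test of a difference between the classes was made. By their identifiers 8 of the genes are on chromosome 7 and 7 on chromosome 11. Higher in *Dap1* were 3 of those on chromosome 7 and 5 of those on chromosome 11, where all listed genes gave 46 of 80 and 32 of 71.

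**Figure D4:**
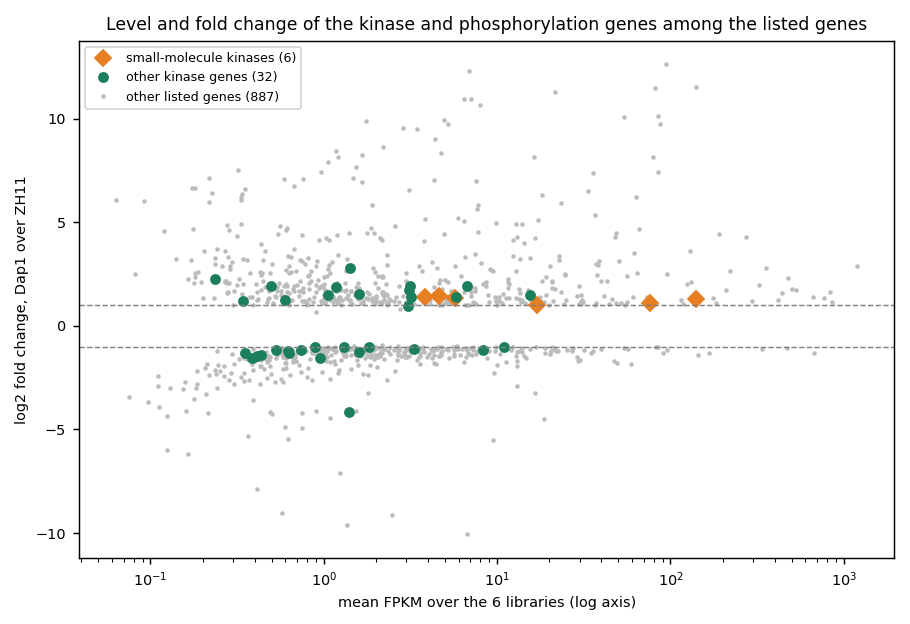
Mean FPKM over the 6 libraries (log axis) against the log2 fold change of *Dap1* over ZH11 for the 6 small-molecule kinases (orange), the other 32 kinase genes (green) and the other 887 listed genes (grey). Dashed lines mark 1 and -1. The 38 genes lie between -2 and 2 except *CIPK15*, *OsRLCK352* and *Os07g0131375*.

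Replicate spread was compared with that of all listed genes. Among genes averaging 10 counts or more in a group, the median coefficient of variation was 14.3% in *Dap1* (36 genes) and 13.8% in WT (35 genes), and over all listed genes it was 11.9% in *Dap1* and 13.6% in WT. As a description only, since the genes were split by the sign of the same contrast, the median log2 ratio to the WT mean was 1.49, 1.28 and 1.49 in the 3 *Dap1* libraries over the 21 genes above 0, and -1.28, -1.23 and -1.24 over the 17 genes below 0. Single genes varied more, such as *Os03g0556600* at -0.63, -1.36 and -2.76. The low count step of the rule left out *Os08g0376300*, a leucine-rich receptor-like kinase with 1, 2 and 3 counts in *Dap1* and 9, 13 and 11 in WT, and *Os07g0194100*, described as similar to OSK2, with 2, 3 and 2 counts in *Dap1* and 14, 7 and 12 in WT. Just inside it were *Os10g0153900*, *Os07g0131375* and *OsRLCK352*, whose counts are given above.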

How the data were processed

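Leaf RNA of 3 *Dap1* and 3 ZH11 (WT) samples was enriched for poly(A) RNA and sequenced. Reads were cleaned by the authors (Fastp, with rRNA taken out by Bowtie 2) and aligned to Nipponbare rice (HISAT 2), and transcripts were assembled and quantified (StringTie, RSEM). Versions, genome build and strand setting are not given in the sources used here. The deposited table holds raw counts and FPKM per library for the 925 genes the authors called. The authors' log2 fold changes, p-values, FDR and mean FPKM are also deposited and were not used.

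Totals over all genes are unknown, so relative library sizes were taken from the median ratio of count to FPKM (258 genes, FPKM of at least 2 in every library). The counts of all 925 genes were fitted with edgeR 4.0.16 (glmQLFit, glmQLFTest) in R 4.3.3, unfiltered and with no replicate block, and each standard error is the absolute log2 fold change over the square root of F. On simulated counts in which 200 of the 925 genes changed by 2 on the log2 scale, the fit recovered 196 with 1 false call. The simulation had fewer changed genes than the real list, in random directions, and took the library sizes as known. It therefore does not check the scaling. Kinase types were set by fixed patterns on description and symbol. Values in every library are given for genes with a symbol, for the small-molecule kinases and for the 5 largest rises and 5 largest falls, and for some other genes chosen after their values were seen. The genes and lists were chosen with earlier results of these data known. Alternatives were TMM factors and DESeq2 1.42.0 size factors over the listed genes, the Wald test of DESeq2, limma 3.58.1 with pseudocounts of 1 and 0.1 on FPKM, a count minimum (mean of 10), the replicate block, omission of single libraries and the ratio of mean FPKM. Of 18 symbols, 5 matched 1 RefSeq gene each (ASM3414082v1), on the chromosome their identifiers give. No identifier matched, so no coordinates are given. Replicates of a group differed beyond sampling noise in all pairs (chi-square per gene 1.81 to 2.20), and no source used here says how plants were pooled.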

Additional observations from a re-analysis of the deposited data

How the results depend on the processing

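Every one of the 38 genes kept its direction under all alternatives. The number past the thresholds was 36, and it fell to 23 with DESeq2's size factors and to 13 with limma on log2(FPKM + 1). The genes higher in *Dap1* fell to 10 with TMM factors, 6 with DESeq2's size factors and 11 with limma on log2(FPKM + 1), and the lower genes to 2 with this limma fit, whose scale understates changes of low genes. The small-molecule kinases past the thresholds fell to 0 with both TMM and DESeq2's size factors. The receptor-like cytoplasmic kinases called lower fell to 1 with limma on log2(FPKM + 1) and to 3 on log2(FPKM + 0.1). The median log2 fold change of the 38 genes was 0.61, 0.21 and 0.41, and that of the small-molecule kinases 0.87, 0.47 and 1.13, with TMM factors, DESeq2's size factors and limma on log2(FPKM + 1). Omitting single libraries gave a small-molecule median of 1.22 to 1.32. The TMM and DESeq2 factors were computed on genes selected for changing, and shifted all listed genes by medians of -0.45 and -0.85. DESeq2's Wald test and the count minimum changed no call, although 1 gene was not tested under the minimum. Same-numbered replicates did not deviate together (correlations of -0.079 to 0.011), and no sample correlated best with its own number. With the replicate block 37 genes passed, 20 higher and 17 lower, and no call but that of *Os04g0419700* changed. Leaving out single libraries changed the call of 7 genes. Depth limits the rare genes, since 5 of the 38 averaged fewer than 10 counts in a group.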

Other observations

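Related genes outside the list were counted in the same table, where 56.9% of all listed genes passed as higher and 41.7% as lower. The 8 phosphorylation genes that the rule left out comprised 2 higher and 5 lower genes that passed and *SAPK9*, a kinase activated by abscisic acid, at a log2 fold change of -0.9997 (standard error 0.20). The higher ones were the cytosolic phosphoglycerate kinase *PGK* (*Os06g0668200*, log2 fold change 3.29, standard error 0.097) and *Os09g0278300*, annotated with a serine hydroxymethyltransferase domain, which had 140, 146 and 125 counts in *Dap1* and 1, 1 and 0 in WT. Among the lower ones were *OsPHP1*, a phosphotransfer protein (-1.36, standard error 0.18), and the hexokinase *OsHXK4* (-1.16, standard error 0.26). All 3 genes with kinase in the description and neither GO term passed as lower, the most abundant being *Os09g0345300*, a receptor-like kinase with 130, 122 and 140 counts in *Dap1* and 424, 332 and 332 in WT. Of 11 genes annotated with dephosphorylation or described with the word phosphatase, 4 passed as higher and 7 as lower. No description among them names a protein phosphatase, and they include glycerol-3-phosphate acyltransferases and an apyrase. The trehalose-6-phosphate phosphatase *OsTPP4* was among the lower ones, with 1, 1 and 0 counts in *Dap1* and 15, 5 and 7 in WT. Of 9 genes with the term calcium ion binding, 6 passed as higher and 2 as lower, and *WAK112* did not pass. The largest rise among them was that of the annexin *OsANN5*, with 621, 639 and 672 counts in *Dap1* and 20, 22 and 21 in WT, a log2 fold change of 4.90 (standard error 0.13). *OsANN5* and *PGK* are both among the 27 listed genes with the term response to heat, of which 26 were higher in *Dap1*. The term defense response was given for 14 listed genes, 3 of them kinases described above, and 4 passed as higher and 10 as lower.

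The value of *25L1* depended on the unit. Its log2 fold change was 1.40 from counts and 1.16 from mean FPKM. The count per FPKM, scaled to library size, was 66.5, 66.2 and 66.6 in *Dap1* leaves and 63.7, 48.8 and 57.6 in WT leaves. This ratio follows the transcript length used in the authors' estimate. Its mean was 17.2% higher in *Dap1*, the largest difference between the groups among the 258 genes with FPKM of at least 2 in every library, whose median difference was 0.03% in size. The cause was not tested. *Os09g0294000* and *OsP5CS*, in the same list, differed by 0.51% and -0.01%.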
